A study of Mus musculus with 6 samples.

Results

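The comparison set 2 of the study's 6 arrays against each other: wild-type mast cells grown on Lpar1-/- fibroblasts, and mast cells labelled Pla2g3-/- grown on wild-type fibroblasts. Both were chosen by their titles alone. The mast cells had been grown from mouse bone marrow in 10 ng/ml interleukin-3, and the fibroblasts were Swiss 3T3, an established mouse line. All cocultures lasted 4 days and received 100 ng/ml stem cell factor, the ligand of the mast cell receptor Kit. The other 2 cocultures were Pla2g3+/+ mast cells on wild-type fibroblasts, the control of the array labelled Pla2g3-/-, and wild-type mast cells on Lpar1+/+ fibroblasts, the control of the Lpar1-/- array, called the wild-type array below. They served as a yardstick for how far cocultures of like genotype differed. The remaining 2 arrays held mast cells without fibroblasts, Pla2g3+/+ and labelled Pla2g3-/-, grown in 10 ng/ml interleukin-3. Their labels give no stem cell factor and no coculture day. Between them and the cocultures, fibroblasts, stem cell factor and the culture itself cannot be told apart. The labels used here state no strain, age or sex of the mice. The Lpar1-/- fibroblasts had gone through single-cell cloning after CRISPR/Cas9 editing, so that Lpar1 genotype and clone cannot be told apart. Each array held RNA pooled from 3 samples of the mast cell fraction. A group is therefore 1 array, there is no replicate check, and no p-value is given.

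Mast cells mature in contact with fibroblasts toward the connective tissue type, which stores heparin, histamine, chymases and tryptases in its granules and carries Mrgprb receptors. PLA2G3 is a secreted phospholipase A2, an enzyme that releases fatty acids and lysophospholipids from phospholipids. Lysophosphatidic acid is one such lipid mediator, and LPAR1 is a receptor for it that is known in fibroblasts for driving contraction. The design removes the enzyme from the mast cell or the receptor from the fibroblast, and the comparison asks how far the mast cell fractions of these cocultures differed.

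Levels are log2 processed intensities relative to each array's 75th percentile, so that a probe at 0 had the signal of that percentile. Levels of different probes are not comparable. That percentile was 1459 on the Lpar1-/- array and 1243 on the array labelled Pla2g3-/-, against 1520 and 1469 on their controls, and 79.1%, 71.7%, 80.4% and 74.4% of spots were well above background. For Pla2g3, the targeted gene, the arrays opposed the label. The brightest of its 3 probes (mm9 chromosome 11, 3394109 to 3394168) had a level of -1.84 under the Pla2g3-/- label, -7.31 on the Pla2g3+/+ array, -6.58 on the wild-type array and -4.85 on the Lpar1-/- array. Its other probes differed between the knockout arrays by -0.75 and -4.94 on the log2 scale, the latter not well above background on the Lpar1-/- array. The array is called the array labelled Pla2g3-/- throughout, and every direction below rests on that label. Lpar1 itself (chromosome 4, 58499672 to 58499731) read between -4.34 and -3.58 in the 4 cocultures and, since the RNA was of the mast cell fraction, does not check the fibroblast genotype.

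The knockout cocultures lay much nearer to each other than each did to its own control. Genes 2-fold or more apart were called, and a gene too dim on 1 of the arrays has a bound in place of a value, written "at least". Of 23650 genes compared, 1194 (5.05%) were higher on the Lpar1-/- array and 275 (1.16%) were lower, 6.21% in all. Counts of called genes in the lists below are to be read beside these shares. Between the wild-type cocultures 191 (0.796%) of 24000 genes were higher on the control of the Lpar1-/- array and 40 (0.167%) lower, 0.963% in all. Against its own control, the Lpar1-/- array was higher in 11.3% and lower in 8.84% of 24534 genes, 20.1% in all. The array labelled Pla2g3-/- was higher in 9.1% and lower in 10.4% of 22494 genes, 19.5% in all. Among genes well above background on both knockout arrays, the SD of the log2 differences was 0.49, against 0.26 for the wild-type pair, and 85.3% of the differences lay within the range of 0.54 either way that held 95% of the wild-type pair's.

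**Figure D1:**
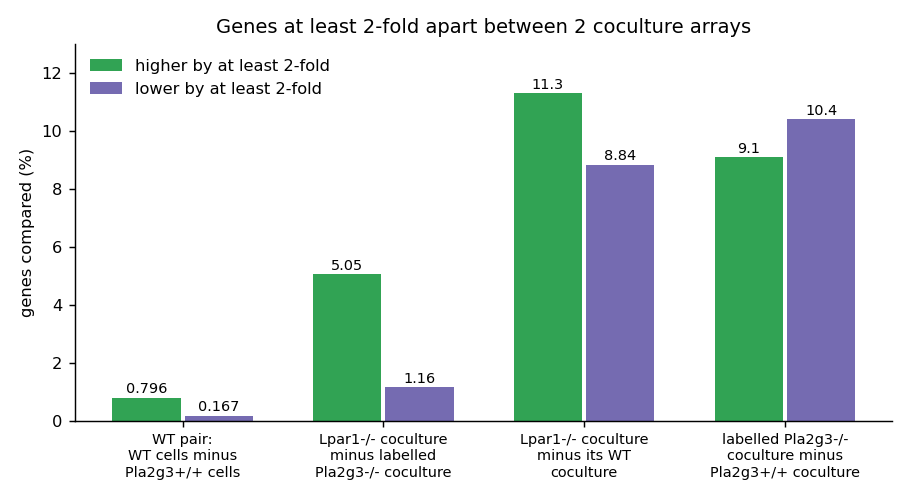
Bars give the percentage of compared genes that were at least 2-fold higher (green) or lower (purple) in each of 4 comparisons between coculture arrays, 1 array per group and so without error bars. The knockout cocultures differed from each other in 5.05% and 1.16% of genes, and from their own controls in 8.84% to 11.3%.

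Of all calls 81.3% were higher, a share that depended on the background correction and the scaling. That share was 59.0% with normexp background correction (which moved the median of all genes from 0.015 to -0.12), and 55.9% with quantile normalization. Normexp was run with an offset of 50 added to every intensity, which by construction draws log2 differences of dim genes toward 0. For a dim gene, a call lost with normexp therefore does not decide whether the arrays differed. In the wild-type pair a like share of calls, 82.7%, was higher. Of 20720 genes well above background in all 4 cocultures, the dimmest tertile held 475 of the higher and 83 of the lower calls, the middle tertile 213 and 103, and the brightest tertile 20 and 53. The excess of higher calls thus lay in the dimmer tertiles, while in the brightest more genes were called lower. Single genes depended on the background correction as well. Of 111 named genes called past 2-fold between the knockouts, 74 were called with normexp too, 100 with quantile normalization and 105 with the mean of a gene's probes, and those lost with normexp are given with each group. The median scanner error of a difference was 0.21 on the log2 scale for the genes named below, which covers the spot and not the culture.

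Most genes that moved away from control in 1 knockout coculture moved the same way in the other. The 2 differences from control share no array, and across 22421 genes they correlated with a Pearson r of 0.83 and a Spearman coefficient of 0.80. Genes are not independent replicates, and all 4 arrays lay on 1 slide. Of the genes lower than control on the Lpar1-/- array 72.6% were also lower on the array labelled Pla2g3-/-, and of the latter's 65.8% were lower on the former. For higher genes the shares were 65.6% and 85.1%. Opposite calls were rare, with 35 genes higher on the Lpar1-/- and lower on the other array and 2 the reverse. Of 3213 genes that moved the same way and could be compared directly, 2995 (93.2%) lay within 2-fold of each other.

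**Figure D2:**
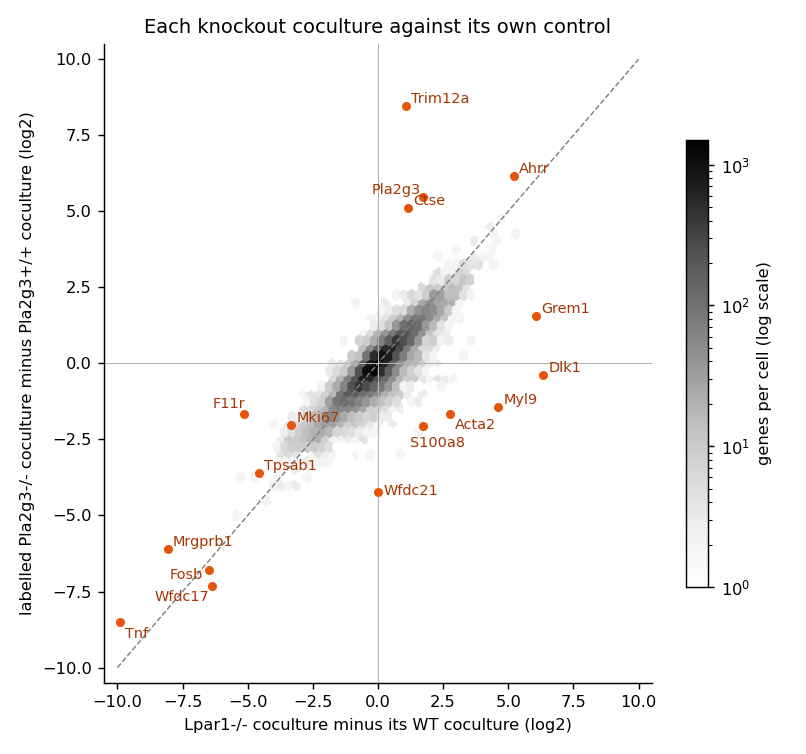
Each of 20720 genes is placed by its log2 difference from control on the Lpar1-/- array (x axis) and on the array labelled Pla2g3-/- (y axis). Shading counts genes on a log scale, the dashed line marks equal differences, and orange points are genes named in the text. Most genes lie near the line, with Tnf, Fosb and Mrgprb1 low on both axes, Dlk1, Myl9 and Grem1 far to the right and Trim12a, Ctse and Pla2g3 far up.

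The genes that moved furthest from control in both cocultures differed little between the knockouts. Tnf, the tumour necrosis factor gene (chromosome 17, 35336795 to 35336854), read 2.04 and 2.58 on the Pla2g3+/+ and wild-type arrays, -6.48 on the array labelled Pla2g3-/- and -7.33 on the Lpar1-/- array. Fosb, an AP-1 subunit gene, read 4.52, 4.96, -2.28 and -1.54 in that order, and the nuclear receptor gene Nr4a1 4.56, 4.80, -1.05 and -0.47. For these 3 genes both knockout arrays lay far below both controls and within 2-fold of each other. The protease inhibitor-like gene Wfdc17 (0.14, -0.02, -7.18 and -6.38) and the glycoprotein gene Gpnmb (-1.0, -1.26, -6.58 and -6.45) were also lower in both. Ahrr, the repressor of the aryl hydrocarbon receptor, was higher in both, at 2.62 and 1.84 against -3.54 and -3.37. Egr2 and Mrgprb1 moved the same way in both cocultures too, but differed between them past 2-fold.

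Genes of mast cell identity were called at about the share of all genes. In the core list, 1 of 27 compared genes was higher and 1 lower, 7.41% beside 6.21% over all genes (median difference -0.18, beside 0.015). The housekeeping list had a like median of -0.19. With quantile normalization the core median was -0.014 and the housekeeping median -0.065. Kit read 6.97 on the array labelled Pla2g3-/- and 6.85 on the Lpar1-/- array, and 6.62 and 6.49 on their controls. The differences of the IgE receptor subunit genes Fcer1a (-0.33) and Ms4a2 (-0.11), of the carboxypeptidase Cpa3 (-0.22) and of the lineage factor Gata2 (-0.03) were within 2-fold. The gene called higher in the list was Enpp3, a surface marker of basophils and mast cells, at least 5.51-fold higher (within 2-fold with normexp, at 0.33 on the log2 scale), and the gene called lower was Hdc. Genes of IgE receptor signalling had 0 of 22 past 2-fold (median -0.14).

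Among connective tissue mast cell genes, 0 of 17 compared were higher on the Lpar1-/- array and 3 (17.65%) were lower, beside 1.16% of all genes. The median was -0.18, and -0.063 with quantile normalization. Mrgprb1, a mast cell receptor gene (chromosome 7, 55702712 to 55702771), read 0.94 and 0.90 on the controls, -5.18 on the array labelled Pla2g3-/- and -7.17 on the Lpar1-/- array. It was far below control in both. Between the knockouts it was 3.96-fold lower by its brightest probe, but within 2-fold with normexp (-0.66 on the log2 scale) and with the mean of its probes (-0.64). Hdc, the histidine decarboxylase that makes histamine (chromosome 2, 126419516 to 126419575), read 2.75 and 2.32 on the controls, then 0.46 and -0.97, and was 2.70-fold lower. The chymase Mcpt4 (chromosome 14) read 5.79 and 5.8, then 4.66 and 3.59, and was 2.10-fold lower (-0.94 on the log2 scale with quantile normalization). In each of these 3 genes the Lpar1-/- array was the lowest of the 4 cocultures.

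Other granule and receptor genes of the connective tissue type stood at similar levels in both knockout cocultures. The tryptase Tpsab1 read 4.21 and 4.39 on the controls, 0.60 on the array labelled Pla2g3-/- and -0.17 on the Lpar1-/- array, a difference of -0.78. The tryptase Tpsb2 read 5.70, 5.71, 4.49 and 4.49, and the receptor Mrgprb2 2.70, 2.66, 1.13 and 1.02. Both knockouts thus lay below both controls for all 3, by more than 2-fold, and within 2-fold of each other. The chymase Cma1 (-0.29), the prostaglandin D synthases Hpgds (-0.18) and Ptgds (0.17) and the heparin sulphotransferase Ndst2 (0.36) were within 2-fold as well. No coculture array showed the prostaglandin D receptor gene Ptgdr well above background.

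The mucosal type chymases Mcpt1 and Mcpt2, high in the intestinal mast cell type, were above control in both. Mcpt1 read -2.85 and -3.23 on the controls, 1.02 on the array labelled Pla2g3-/- and 1.53 on the Lpar1-/- array. In the mucosal and basophil list, 1 of 10 genes was called (10.0%, beside 6.21% of all genes), the basophil type protease Prss34. It read -3.95 and -3.62 on the controls, -5.10 on the array labelled Pla2g3-/- and -2.45 on the Lpar1-/- array, a 6.27-fold difference. Of the 10, Mcpt1, Mcpt2, Itgae and Itgb7 were higher and Mcpt8 and Gzmb lower than control on both knockout arrays past 2-fold. Chymase, tryptase and Mrgprb genes belong to families of similar sequence, and which member a probe read is uncertain.

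Immediate early genes, the first to be transcribed after a stimulus, were low in both cocultures, with list medians of -2.19 (Lpar1-/- array) and -1.78 (array labelled Pla2g3-/-) against control. Between the knockouts 2 of 28 were higher and 2 lower (7.14% each, beside 5.05% and 1.16% of all genes, median -0.04). The zinc finger factor Egr2 read 2.92 and 3.15 on the controls, -2.50 on the array labelled Pla2g3-/- and -3.92 on the Lpar1-/- array, and Egr1 3.86, 4.09, 0.16 and -1.10. They were 2.69-fold and 2.40-fold lower on the Lpar1-/- array. The AP-1 gene Fosl1 (2.45-fold) and the stress factor Atf3 (2.37-fold) were higher there, though within 2-fold with normexp (0.98 and 0.56 on the log2 scale). Jun, Junb and Jund, also AP-1 subunits, differed by -0.64, -0.75 and -0.66, while Fos differed by 0.06.

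Of 18 genes of ERK feedback compared, 5 (27.8%, beside 5.05% of all genes) were higher and 0 lower (median 0.48) on the Lpar1-/- array. With normexp 2 were higher and 0 lower (median 0.16). Both arrays nevertheless lay far below control (medians -2.10 and -2.24). Dusp2, an ERK phosphatase, read 0.36 and 0.17 on the controls, -3.41 on the array labelled Pla2g3-/- and -1.86 on the Lpar1-/- array, a 2.92-fold difference. The ERK target factors Etv1 and Etv4 were 2.96-fold and 2.46-fold higher. Etv4 stood at -0.07 on the Lpar1-/- array and -0.16 on its control, so that only the array labelled Pla2g3-/- was low, at -1.36. Dusp5 was 2.16-fold and Spry4, a Sprouty inhibitor, at least 2.33-fold higher, whereas Spry1 (0.12), Spry2 (-0.03) and Dusp1 (-0.06) were within 2-fold. With normexp Etv1, Dusp5 and Spry4 were within 2-fold, at 0.76, -0.097 and 0.00 on the log2 scale. NF-kB genes had 0 of 19 past 2-fold (median 0.00), with both arrays below control (medians -1.39 and -1.04).

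Chemokine genes were lower as a list on the Lpar1-/- array, 6 of 17 compared lower (35.3%, beside 1.16% of all genes) and 0 higher (median -0.38). With normexp 3 were lower and 0 higher at nearly the same median. The neutrophil attractant Cxcl5 read -0.41 and -0.38 on the controls, -2.56 on the array labelled Pla2g3-/- and -4.73 on the Lpar1-/- array. It was 4.5-fold lower between the knockouts. Ccl1 (3.02-fold, by its brightest probe, while its other probe differed by 0.09 on the log2 scale) and Cxcl1 (2.04-fold) were below control in both cocultures, as was the macrophage attractant Ccl4 (2.02-fold). Cx3cl1, a membrane-bound chemokine, was 2.72-fold lower, and the eosinophil attractant Ccl24 was 2.50-fold lower. Ccl24 lay above control on the array labelled Pla2g3-/- (-3.05 against -5.20) and within 2-fold of control on the Lpar1-/- array. The monocyte attractants Ccl2 (-0.97) and Ccl7 (-0.42) lay within 2-fold between the knockouts. With normexp Ccl4, Cxcl1 and Ccl24 were just within 2-fold, at -0.96, -0.93 and -0.99. Among cytokine genes 3 of 20 were higher and 1 lower, namely the growth factors Hbegf (2.48-fold), Areg (at least 2.2-fold) and Csf2 (2.14-fold) and the lower Tnfsf9 (2.15-fold). Areg and Csf2 were within 2-fold with normexp (0.037 and -0.054 on the log2 scale) and with quantile normalization (0.58 and 0.66).

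Growth genes were low in both cocultures. Mitosis genes were lower than control in 32 of 34 on each knockout array (medians -2.23 on the Lpar1-/- array and -2.16 on the other), and differed between the knockouts by a median of -0.13, with 4 lower (11.8%, beside 1.16% of all genes) and 0 higher. The proliferation marker Mki67 read 4.75 and 4.78 on the controls, 2.74 on the array labelled Pla2g3-/- and 1.44 on the Lpar1-/- array, 2.47-fold apart. The spindle gene Nusap1, the cyclin Ccnb2 and the kinase Aurkb were 2.25-fold, 2.21-fold and 2.19-fold lower on the Lpar1-/- array, Aurkb within 2-fold with normexp (-0.45 on the log2 scale). DNA replication genes had medians of -1.80 and -1.72 against control. Between the knockouts 1 of 33 was past 2-fold (3.03%, beside 6.21% of all genes), E2f2, which was 2.40-fold lower. Cholesterol synthesis genes had medians of -1.96 and -1.58 against control and 0 of 25 past 2-fold between the knockouts (median -0.23). The cell cycle inhibitor Cdkn1b stood at 3.92 and 4.02, against 1.62 and 1.72 on the controls. Cdkn2b, the gene of another cell cycle inhibitor, was 2.12-fold higher on the Lpar1-/- array. It was within 2-fold with normexp (0.87) and just within it with the mean of its probes (0.995).

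**Figure D3:**
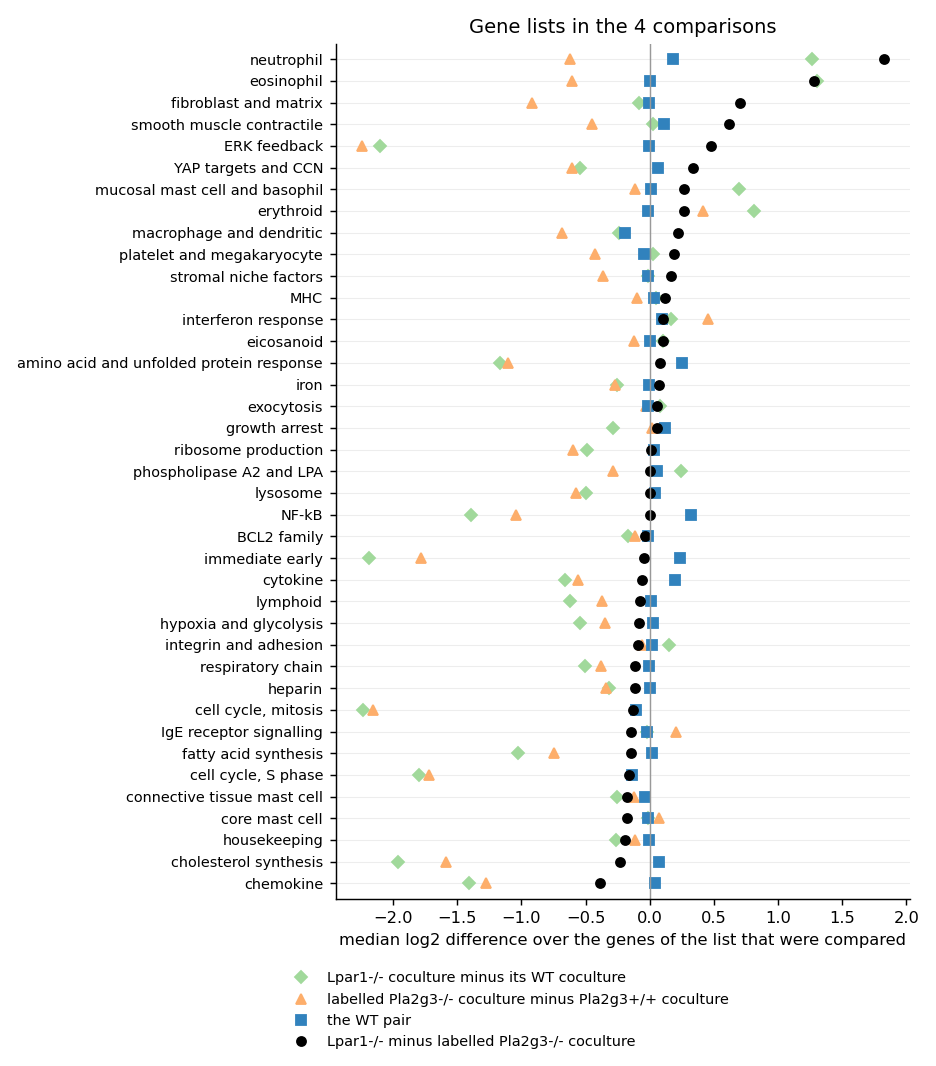
Each row is 1 of 39 gene lists, and symbols give the median log2 difference of its compared genes in 4 comparisons: between the knockout cocultures (black), between the wild-type cocultures (blue), and of each knockout coculture against its control (green and orange). Cell cycle, immediate early and cholesterol lists lie far left in both differences from control and near 0 between the knockouts, while the ERK feedback list lies at 0.48 between them. The neutrophil, eosinophil, fibroblast and smooth muscle lists lie furthest right between the knockouts.

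The largest median difference of any of the 39 lists in the wild-type pair was 0.32 in size, and 7 lists passed it between the knockouts. With bounds in place of dim readings 6 passed, without the eosinophil list. Besides the chemokine and ERK feedback lists these were the lists of YAP targets and CCN matricellular genes, smooth muscle genes, fibroblast and matrix genes, eosinophil genes and neutrophil genes, all higher on the Lpar1-/- array. The YAP and CCN median of 0.34 passed narrowly. It was below 0.32 with normexp (0.28), quantile normalization (0.27) and the mean of probes (0.31). With normexp the ERK feedback median was 0.16, the smooth muscle median 0.32 and the eosinophil median below 0 (-0.044).

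Some of the largest differences lay in contractile and mesenchymal genes. Dlk1, a membrane protein gene of mesenchymal progenitors (chromosome 12, 110698721 to 110698781), read -3.30 and -3.43 on the controls, -3.68 on the array labelled Pla2g3-/- and 2.91 on the Lpar1-/- array, a 95.9-fold difference, and its second probe differed by 6.75 on the log2 scale. Myl9, the regulatory light chain of smooth muscle myosin (chromosome 2, 156607301 to 156607360), read -3.73, -3.84, -5.16 and 0.78 in that order, a 61.2-fold difference. The smooth muscle actin Acta2 (chromosome 19, 34316060 to 34316119) read -0.84, -0.83, -2.50 and 1.93, a 21.5-fold difference, with an SD over its 10 spots per array of 0.07 to 0.12. In each of these the Lpar1-/- array stood above the other 3. For Myl9 and Acta2 the array labelled Pla2g3-/- lay below its control as well.

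Thy1, a surface protein of fibroblasts and thymocytes, was at least 460-fold and the enteric actin Actg2 at least 128-fold higher. Thy1 read 0.76 on the Lpar1-/- array, -6.86 and -7.71 on the controls and was not well above background on the array labelled Pla2g3-/-. Of 14 contractile genes compared, 5 (35.7%, beside 5.05% of all genes) were higher and 0 lower (median 0.62, and 0.40 with bounds in place). The higher genes were Acta2, Actg2, Myl9, the tropomyosin Tpm2 (4.81-fold) and the caldesmon Cald1 (2.26-fold). With normexp the median was 0.32 and Cald1 within 2-fold (0.89). Tagln (0.90), Vcl (0.33), Flna (0.29) and Tpm1 (-0.17) were within 2-fold. The skeletal actin Acta1 was 11.8-fold higher. The BMP antagonist Grem1 (chromosome 2, 113589227 to 113589286) read -6.62 and -6.00 on the controls, -5.06 on the array labelled Pla2g3-/- and 0.04 on the Lpar1-/- array, a 34.4-fold difference, and was above control on both.

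Other genes for which the Lpar1-/- array stood above the other 3 were Bok, a BCL-2 family member (38.3-fold), the ephrin Efna1 (21.3-fold), the elastic fibre gene Fbln5 (20.4-fold) and Scrn1 (at least 42.9-fold). Fbln5 read -4.6 and -4.3 on the controls, -7.4 on the array labelled Pla2g3-/- and -3.0 on the Lpar1-/- array. The mean of its probes differed by 2.02 on the log2 scale, against 4.35 by its brightest. The imprinted noncoding RNA Meg3, a neighbour of Dlk1 on chromosome 12, was 17.8-fold higher, with -2.88 on the Lpar1-/- array and -7.79 to -7.03 on the other 3. Bok, Grem1, Efna1, Scrn1, Actg2 and Meg3 were not well above background on either array of mast cells without fibroblasts. Of the 1194 higher genes 22.4% were not well above background on either of those arrays, as were 16.4% of the 275 lower ones and 9.15% of all genes compared.

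**Figure D4:**
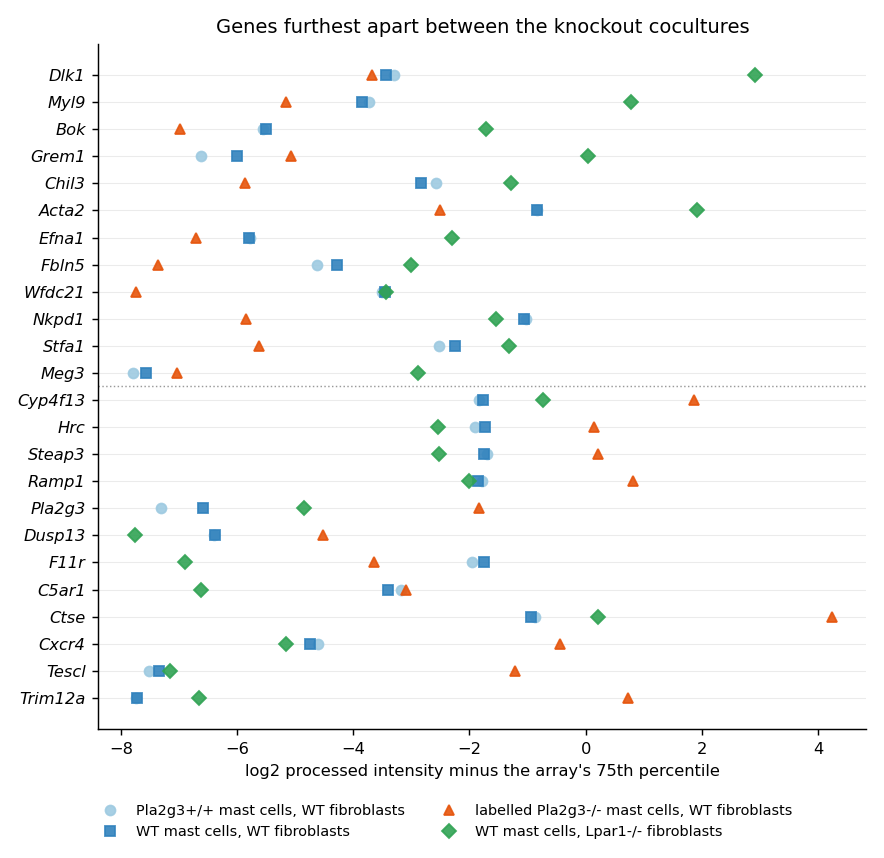
Levels on the 4 coculture arrays (log2 processed intensity minus the 75th percentile of the array) of the 12 genes furthest higher (above the dotted line) and the 12 furthest lower on the Lpar1-/- array than on the array labelled Pla2g3-/-, among genes well above background on both. For Dlk1, Myl9, Grem1 and Acta2 the Lpar1-/- array (green) stands apart at the right, and for Trim12a, Tescl, Cxcr4 and Ctse the array labelled Pla2g3-/- (orange) does.

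Serum response factor drives many contractile and immediate early genes through a DNA element called the CArG box. Myl9 and Acta1, both higher on the Lpar1-/- array, held a box in the RefSeq promoter window (250 bases before to 50 after the start, GRCm38.p6), as did Egr2 (in 4 of its 5 windows), far below control in both cocultures, and Srf, the gene of the factor itself, which differed by 0.04 between the knockouts. These stretches, chosen after the values were seen, are shown because they carry the same element before genes that differed in their values. They run from 5′ to 3′ on the strand of the gene, and capitals mark the box.
Myl9, chr2:156775263-156775352, plus strand: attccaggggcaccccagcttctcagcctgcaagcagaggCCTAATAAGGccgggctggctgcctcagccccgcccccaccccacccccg
Acta1, chr8:123894799-123894888, minus strand: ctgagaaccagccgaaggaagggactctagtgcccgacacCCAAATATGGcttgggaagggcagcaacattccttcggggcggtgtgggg
Egr2, chr10:67537454-67537543, plus strand: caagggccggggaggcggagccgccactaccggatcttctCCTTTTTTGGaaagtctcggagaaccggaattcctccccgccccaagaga
Srf, chr17:46556175-46556284, minus strand: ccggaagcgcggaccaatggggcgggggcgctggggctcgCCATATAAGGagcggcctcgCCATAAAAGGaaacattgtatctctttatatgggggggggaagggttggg

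The box lay 151 bases before the start in Myl9, 63 in Acta1 and 62 in Egr2, and the nearer of 2 boxes 52 bases before it in Srf. Over all windows, 535 of 32851 (1.63%) held a CArG box, read on both strands. Among contractile genes with a window it was found in 3 of 13, Myl9, Cnn2 and Vcl, of which Cnn2 and Vcl were within 2-fold between the knockouts, and among immediate early genes in 3 of 24, Egr2, Srf and Zfp36. The windows of Acta2 and Tpm2 held no match to these letters. A match is a description of the sequence and not a binding site. The motif TTTGAA, with either strand searched, was found in 69.0% of the windows of mitosis genes, beside 17.9% of all.

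As a list, matrix genes lay below control on the array labelled Pla2g3-/-, while on the Lpar1-/- array they went both ways. Of 39 fibroblast and matrix genes compared, 14 (35.9%, beside 5.05% of all genes) were higher on the Lpar1-/- array and 0 lower (median 0.70). With normexp 9 were higher and 0 lower (median 0.55). The array labelled Pla2g3-/- was lower than its control in 15 of 37 and higher in 0 (median -0.92), and the Lpar1-/- array higher than its control in 9 and lower in 5 of 39 (median -0.08). Decorin (Dcn), a collagen-binding proteoglycan, read -1.14 and -0.88 on the controls, -3.58 on the array labelled Pla2g3-/- and -1.37 on the Lpar1-/- array, 4.64-fold apart. The collagen cross-linking enzyme Lox (4.75-fold), fibronectin (Fn1, 2.91-fold) and the collagen chains Col1a1 (2.51-fold) and Col1a2 (2.40-fold) were also higher. The protease inhibitor Timp3 was 5.12-fold, the matricellular gene Postn at least 14.4-fold and Tnc at least 2.39-fold higher, of which Postn and Tnc were within 2-fold with normexp (0.82 and 0.037 on the log2 scale).

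The list was drawn up for the fibroblasts of the culture, but mast cells read some of it: Timp3 stood at 1.72 and 1.54 without fibroblasts, above all cocultures, and Thy1 at -2.37 and -4.76, above both controls. The summed linear level of the list was 36.2 on the array labelled Pla2g3-/- and 56.5 on the Lpar1-/- array, against 94.95 and 94.03 on the controls and 8.95 to 9.40 without fibroblasts. Of the 40 genes, 36, 39, 37 and 38 were well above background in those cocultures, and 20 without fibroblasts. The summed level of 16 smooth muscle genes was 25.4 on the array labelled Pla2g3-/-, 36.4 on the Lpar1-/- array and 31.3 and 32.5 on the controls. In bulk RNA, fewer cells of a type and less RNA per cell cannot be told apart, and the part of carried-over fibroblast RNA in the differences above was not tested. In the YAP and CCN list, 3 of 14 were higher (21.4%, beside 5.05% of all genes) and 1 lower (7.14%, beside 1.16%). The higher ones were the connective tissue growth factor Ccn2 (6.02-fold), Ankrd1 (3.76-fold) and the receptor kinase Axl (2.48-fold), and Ccn3 was 3.8-fold lower. Ankrd1 lay below control in both cocultures, whereas Ccn2 was above control only on the Lpar1-/- array, at -1.76 against -5.29. Stromal niche factors had 3 of 20 higher, Grem1, Tgfb2 (2.16-fold) and Tgfb3 (2.91-fold), and Kitl, the gene of stem cell factor, differed by 0.36. Tgfb2 was within 2-fold with normexp (0.29).

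Neutrophil genes had a median of 1.82 (1.67 with bounds in place), with 12 of 19 higher on the Lpar1-/- array (63.2%, beside 5.05% of all genes) and 0 lower. With normexp the median was 0.37, below that of the fibroblast list, and 9 were higher and 0 lower. S100a8, a calcium-binding alarmin of neutrophils (chromosome 3, 90473778 to 90473837), read -0.62 and -0.42 on the controls, -2.67 on the array labelled Pla2g3-/- and 1.31 on the Lpar1-/- array, a 15.7-fold difference. Its partner S100a9 read 1.24, 1.37, -0.73 and 3.05 and was 13.7-fold higher. The array labelled Pla2g3-/- was the lowest and the Lpar1-/- array the highest of the 4 for both. The granule genes Ltf (9.69-fold), Ngp (8.42-fold), Camp (7.2-fold) and Mpo (6.10-fold) were higher too. Stfa1, a stefin protease inhibitor of a family with near-identical members, was 19.6-fold higher by its brightest probe, while its other probe differed by -0.15 on the log2 scale. Elane (0.18), Ctsg (-0.12) and Csf3r (-0.03) were within 2-fold.

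Neutrophil genes also differed by the Pla2g3 label without fibroblasts. There S100a8 read 3.15 on the Pla2g3+/+ array and -1.49 on the array labelled Pla2g3-/-, and Camp 1.05 and -3.83. The summed linear level of the 19 genes was 135 and 82.0 there, with 18 genes above background on both, and 76.7, 67.9, 77.1 and 78.4 in the cocultures with Pla2g3+/+, labelled Pla2g3-/-, wild-type and, on Lpar1-/- fibroblasts, wild-type mast cells. Against their own controls, 10 of the 19 were higher and 1 lower on the Lpar1-/- array, and 2 higher and 6 lower on the array labelled Pla2g3-/-. The part of other myeloid cells in this difference was not tested.

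In the eosinophil list, 2 of 8 were higher (25.0%, beside 5.05% of all genes), the granule gene Prg2 (at least 21.5-fold) and the factor Cebpe (4.62-fold). Its median was 1.28, but 0.28 with bounds in place and -0.044 with normexp. Cebpe was within 2-fold with normexp (0.85), and the defining genes Epx and Ear2 were not well above background in any coculture. Its summed level lay between 1.06 and 1.21 in the cocultures. Macrophage and dendritic genes went both ways, 4 of 20 higher (20.0%) and 2 lower (10.0%, median 0.22). Their summed level, which weighs the brightest genes most, was 55.1 on the array labelled Pla2g3-/-, 39.9 on the Lpar1-/- array and 18.4 and 17.8 on the controls. Most called genes of the list went the other way from the sum. Against control, 9 of 21 were lower and 2 higher on the array labelled Pla2g3-/- (median -0.69). On the Lpar1-/- array 7 of 23 were lower and 2 higher (median -0.24). Mpeg1 (4.47-fold by its brightest probe, 0.33 on the log2 scale by its other) and the lysozymes Lyz2 and Lyz1 (2.64-fold and 2.04-fold) were higher, as was the endotoxin co-receptor Cd14 (2.08-fold). The lysosomal glycoprotein Cd68 and the complement gene C1qc were 2.24-fold and 2.08-fold lower. With normexp the macrophage median was -0.13, with 0 higher and 1 lower, Cd68. The chitinase-like gene Chil3, made by myeloid cells, was 24.0-fold higher. Platelet genes had 2 of 15 (13.3%) higher, Pf4 (5.51-fold) and Ppbp (at least 3.41-fold), and lymphoid genes 1 of 9 (11.1%), Ncr1 (3.48-fold). Erythroid genes had 2 of 10 (20.0%) higher, Tfrc and Hbb-bt (2.40-fold, but -0.71 on the log2 scale as a difference of the effects against each control). With normexp Ppbp, Ncr1, Tfrc and Hbb-bt were within 2-fold, at 0.028, 0.074, 0.71 and 0.19. Several genes of this paragraph were also lower under the Pla2g3-/- label than under Pla2g3+/+ without fibroblasts. They were Prg2 (-4.91 against 0.45), Chil3 (-4.14 against -0.09), Pf4 (-2.41 against 2.38), Cebpe (-4.07 against -1.53) and Mpeg1 (-4.76 against -2.40). Ppbp was not well above background under the label there, against -2.66. Cd68, Tfrc and Ncr1 lay within 2-fold.

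**Figure D5:**
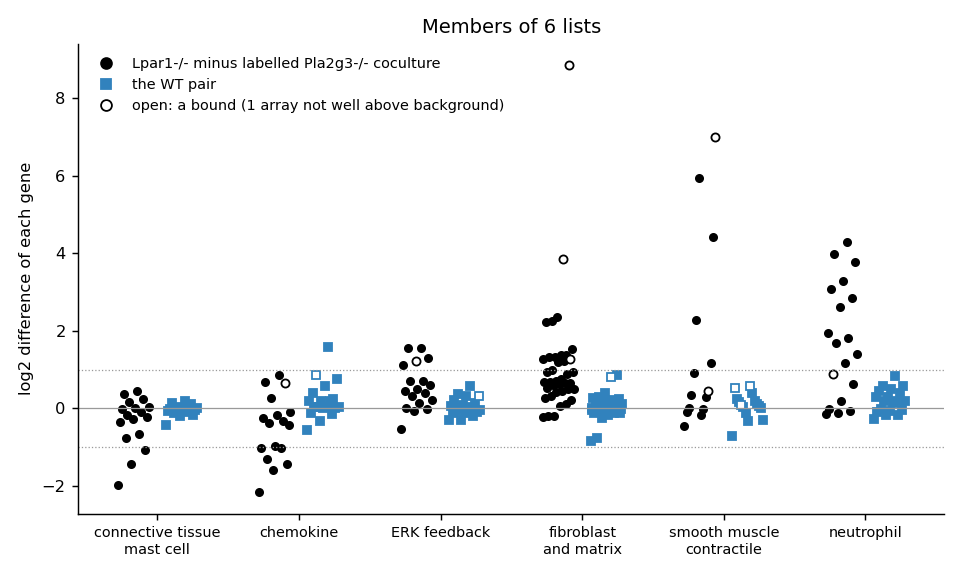
Each point is 1 gene of 6 lists, placed by its log2 difference between the knockout cocultures (black circles) or between the wild-type cocultures (blue squares). Open symbols are bounds, and dotted lines mark 2-fold. Black points reach to 8.85 (Thy1) in the fibroblast list, 7.0 (Actg2) in the smooth muscle list and 4.29 (Stfa1) in the neutrophil list, and to -1.98 (Mrgprb1) and -2.17 (Cxcl5) in the connective tissue and chemokine lists, where the blue points lie closer to 0.

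Some genes followed the Pla2g3-/- label with and without fibroblasts. Trim12a (chromosome 7, 111448499 to 111448558) read -7.74 and -7.71 on the controls, 0.72 on the array labelled Pla2g3-/- and -6.66 on the Lpar1-/- array, 167-fold lower there. Without fibroblasts it read -6.67 under Pla2g3+/+ and 0.73 under Pla2g3-/-. The calcium-binding protein gene Tescl was 60.7-fold lower on the Lpar1-/- array, and Ctse, an aspartic protease, 16.3-fold. Trim5 and Ppm1n were at least 25.4-fold and at least 6.2-fold lower (Ppm1n within 2-fold with normexp, at -0.74). All 5 were higher under the Pla2g3-/- label without fibroblasts as well, as was Pla2g3. The Lpar1-/- array also lay above its control in Trim12a (2.08-fold), Ctse (2.20-fold) and, by its brightest probe, Pla2g3 (3.34-fold). On the array labelled Pla2g3-/- these lay 353-fold, 34.5-fold and 44.4-fold above control. Tescl was within 2-fold of control on the Lpar1-/- array. Trim12a and Trim5 belong to a family of near-identical members, and the 2 probes of Trim12a differed between the knockouts by -7.38 and -3.52.

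Conversely, Wfdc21 (19.7-fold), Nkpd1 (19.7-fold) and F10, the coagulation factor X gene (at least 37.5-fold), were higher on the Lpar1-/- array, and the array labelled Pla2g3-/- was the lowest of the 4 for each. Wfdc21 read -3.51, -3.45 and -3.44 on the other 3 coculture arrays against -7.74. Without fibroblasts each of the 3 was also lower under that label. Of the genes called between the arrays without fibroblasts, 90 (0.414% of 21730) were higher and 343 (1.58%) lower under the label, and 27.8% and 43.7% of these were called lower and higher on the Lpar1-/- array. They made up 25 of its 275 lower and 150 of its 1194 higher genes.

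Placed by control, the 1194 higher genes comprised 352 in which only the array labelled Pla2g3-/- was past 2-fold (below its control), 282 in which only the Lpar1-/- array was (above its control), 35 with both in opposite directions, 51 with both above control, 52 with both below it and 422 with neither past 2-fold. Of the 275 lower genes, 96 were below control in both, 60 only on the Lpar1-/- array, and 52 were above control only on the array labelled Pla2g3-/-. Genes lowest on the Lpar1-/- array included F11r, a junctional adhesion molecule (9.60-fold), which read -1.96 and -1.76 on the controls, -3.64 on the array labelled Pla2g3-/- and -6.90 on the Lpar1-/- array. The complement receptor C5ar1 read -3.18, -3.39, -3.10 and -6.61 and was 11.4-fold lower, with only the Lpar1-/- array away from the rest. Syt13, a synaptotagmin gene (at least 59.8-fold), and the F-box gene Fbxl7 (at least 7.75-fold) were below control in both cocultures and not well above background on the Lpar1-/- array, Fbxl7 within 2-fold with normexp (-0.79).

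Of genes above control on the array labelled Pla2g3-/-, Cxcr4, the receptor of the chemokine CXCL12, read -0.44 against -4.60, -4.75 and -5.16 and was 26.4-fold lower on the Lpar1-/- array. Without fibroblasts Cxcr4 differed less, -4.66 under Pla2g3+/+ and -3.99 under Pla2g3-/-. The receptor activity-modifying gene Ramp1 (7.01-fold), the ferrireductase Steap3 (6.64-fold), the calcium-binding Hrc (6.48-fold), the cytochrome Cyp4f13 (6.09-fold) and the phosphatase Dusp13 (9.39-fold) were lower on the Lpar1-/- array. Other probes of these genes differed by -2.52 and -0.25 on the log2 scale for Ramp1, -1.58 for Steap3 and -1.29 for Dusp13. The -0.25 of Ramp1 is no larger than the SD of the wild-type pair (0.26). Cyp4f13 was also 2.03-fold above control on the Lpar1-/- array. Without fibroblasts Cyp4f13 (-0.97 under Pla2g3+/+ and 1.33 under Pla2g3-/-) and Ramp1 (-2.71 and -0.85) were also past 2-fold higher under the label. Steap3 (-3.00 and -2.60) and Hrc (-0.015 and 0.51) were within 2-fold there, and Dusp13 was not well above background on either array.

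Of 29 phospholipase A2 and lysophosphatidic acid genes compared, 2 were higher and 1 (Pla2g3) lower (median 0.01), 6.9% and 3.45% beside 5.05% and 1.16% of all genes. Enpp2, which encodes autotaxin, the enzyme that makes lysophosphatidic acid outside cells, read -5.27 and -4.85 on the controls and -4.56 on the Lpar1-/- array, and was not well above background on the array labelled Pla2g3-/-, a difference of at least 11.5-fold. With normexp Enpp2 was within 2-fold (0.67 on the log2 scale). The lipid phosphatase Plpp1, which degrades lysophosphatidic acid, was 3.36-fold higher. Both stood beside a fibroblast list whose summed level was also higher on the Lpar1-/- array, and its part in them was not tested. The receptors Lpar2 (-0.15), Lpar4 (-0.02) and Lpar6 (-0.25) lay close between the knockouts. Lpar2 and Lpar4 were below control in both, Lpar4 at -5.92 and -5.94 against -2.94 and -2.46, and Lpar6 was above control in both, at 7.0 and 6.76 against 2.91 and 2.56. The secreted enzyme Pla2g2e was below control in both, at -7.32 and -7.86 against -3.54 and -3.52.

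Eicosanoid genes had 3 of 26 higher (11.5%, beside 5.05% of all genes) and 0 lower. The higher ones were the prostacyclin synthase Ptgis (5.82-fold by its brightest probe, -0.15 on the log2 scale by its other), the prostaglandin-degrading Hpgd (2.82-fold) and the inducible cyclooxygenase Ptgs2 (2.27-fold). Ptgs2 read -2.87 and -2.55 on the controls, -2.29 on the array labelled Pla2g3-/- and -1.10 on the Lpar1-/- array. The mast cell enzymes of the pathway, Alox5 (-0.03), Ltc4s (-0.28), Ptgs1 (0.24) and Hpgds, were within 2-fold. Hpgd was within 2-fold with normexp (0.43).

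Some smaller groups held single genes past 2-fold. Over all genes 5.05% were higher and 1.16% lower. Interferon response genes had 4 of 34 higher (11.8%, beside 5.05% of all genes) and 0 lower (median 0.10), Ifit1 (5.19-fold), Ifit3 (at least 3.07-fold), Rtp4 (2.64-fold) and Ifi44 (at least 2.35-fold), for which the array labelled Pla2g3-/- was the lowest of the cocultures. With normexp only Rtp4 was called, with Ifit1 at 0.31 and Ifit3 and Ifi44 at 0.00. Among amino acid and unfolded protein response genes, 2 of 33 were higher (6.06%, near the share of all genes), the cysteine synthesis gene Cth (6.75-fold) and Nupr1 (2.67-fold). The iron list had 3 of 13 (23.1%) higher, the exporter Slc40a1 (3.94-fold), ceruloplasmin (Cp, 2.37-fold) and the transferrin receptor Tfrc (2.06-fold), besides the lower Steap3. Lysosome genes had 2 of 30 higher, the cathepsins Ctsl (4.12-fold) and Ctsh (3.12-fold), and 2 lower, Cd68 and the proton pump subunit Atp6v0d2 (3.61-fold), 6.67% each way. Hypoxia and glycolysis genes had 1 of 29 higher, Egln3 (2.36-fold), and 1 lower, Adm (2.40-fold), 3.45% each way. Integrin and adhesion genes had 2 of 31 (6.45%) higher, Ncam1 (2.78-fold) and Itgb5 (2.29-fold), and MHC genes 1 of 18 (5.56%), Nlrc5 (2.35-fold). Both shares were near the 5.05% of all genes. Fatty acid synthesis, ribosome production, respiratory chain, exocytosis, BCL-2 family, heparin and housekeeping lists had 0 genes past 2-fold, beside 6.21% of all genes, with medians from -0.19 to 0.06. With normexp Slc40a1 (0.81), Cp (0.45), Tfrc (0.71), Ctsh (0.79), Egln3 (0.54), Adm (-0.56) and Nlrc5 (0.24) were within 2-fold.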

How the data were processed

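Each of the 6 groups was 1 single-colour Agilent array, and all lay on 1 slide. The processed intensity of a spot was background-subtracted and detrended by Agilent Feature Extraction 12.1.1.1 before it was deposited, per the file headers. The deposited series table holds the processed signal of each array divided by 1 constant, from 1230.44 to 1520.37, with no centring or log, as a comparison with the scanner values showed, and its medians were 0.0401, 0.0380, 0.0485, 0.0498, 0.0471 and 0.0534 for the arrays of mast cells alone (Pla2g3+/+, then labelled Pla2g3-/-) and the cocultures (Pla2g3+/+, labelled Pla2g3-/-, wild-type, Lpar1-/-).

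From the intensities of 43020 noncontrol spots, log2 values minus the 75th percentile of the array were computed, outlier spots (84 to 115 per array) were dropped, and no spot was saturated. Spots of a probe were averaged. The brightest of a gene's probes over the 6 arrays stood for it (29597 genes, 7555 of them with several probes). Of the spots, 33435 were named by accession and 2724 by symbol and 12 by synonym through RefSeq, and 6849 kept the name of the array design. Probe positions are those of the array design on mm9, and no mm9 annotation of exons was used here.

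A gene entered a comparison when either array read it well above background. Where only 1 did, the bound sets it against the higher of the dim probe's own level and the lowest signal well above background on that array. Summed levels of a list add linear values over its genes.

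The members and the 39 gene lists (866 of 870 genes on the array) were chosen with earlier results of these data known. The rule named 19 fixed genes, the 12 highest and 12 lowest genes, the 4 largest bounds each way, up to 4 called genes each way per list, and the 8 genes furthest from control in both cocultures in the same and in opposite directions, 130 in all. Genes named beyond that rule, among them all list members described as within 2-fold apart from the fixed ones, were chosen after their values were seen. So were the promoter stretches of contractile genes and the split by the arrays without fibroblasts. The labels name 2 ways of taking the mast cell fraction, reseeding or anti-CD117 beads, without saying which served these arrays. With 1 array per group no test was possible. The script was tested on simulated data. Python 3.11.15, numpy 2.4.6, pandas 2.3.3, R 4.3.3 and limma 3.58.1 (normexp with an offset of 50) were used.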

Additional observations from a re-analysis of the deposited data

Results flagged for a closer look

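For 8 genes, all well above background in the 4 cocultures, the Lpar1-/- array lay above its control and the array labelled Pla2g3-/- below its own, and the difference between these effects was not tested. That difference, on the log2 scale, was 4.41 for Acta2 (2.76 against -1.66) and 3.85 for Acta1 (2.28 against -1.57), both actins of muscle. It was 3.78 for S100a8 (1.72 against -2.05) and 3.64 for S100a9 (1.68 against -1.96), the alarmin pair of neutrophils. The heme-binding protein gene Hebp1 had 3.98 (2.23 against -1.74) and the calmodulin-dependent kinase gene Camk2b 3.95 (1.56 against -2.39). For the LIM protein gene Crip2 it was 3.52 (1.79 against -1.72) and for the semaphorin gene Sema7a 3.29 (1.74 against -1.55). Without fibroblasts Camk2b (-4.87 under the Pla2g3-/- label against -1.32 under Pla2g3+/+), S100a8 (-1.49 against 3.15) and S100a9 (0.38 against 4.65) were also lower under the label. The other genes of this group lay within 2-fold there. Camk2b lies within 5 Mb of Pla2g3 on chromosome 11, where 6 of 99 compared genes were higher and 2 lower on the Lpar1-/- array, beside 5.05% and 1.16% of all genes. That window was chosen after the values were seen.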

How the results depend on the processing

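No paired analysis was possible because each group is 1 array, and for the same reason no array could be left out of a group. Of 1014 values of named genes under 8 alternatives, 816 moved by no more than the SD of the wild-type pair (0.26), 196 moved further and 2 reversed, and of 312 list medians 298, 13 and 1 did so. Some alternatives could not move single genes. The deposited table holds the same signal (129 values), both arrays above background only drops genes (111), and the percentile over detected probes shifts all genes alike (129). These unmoved values are part of the 816 and are no check. Most of the movement came from normexp, under which 37 of 129 gene values stayed within that SD, 91 moved further and 1 reversed, and 74 of 111 called named genes were called again. The neutrophil median fell from 1.82 to 0.37 and the ERK feedback median from 0.48 to 0.16 there. The reversed values were Csf2 (-0.054 with normexp, against 1.1), the eosinophil median (-0.044 with normexp, against 1.28) and Hbb-bt (-0.71 as a difference of effects, against 1.26). Counts of calls moved most. The offset of 50 in normexp draws dim genes together by construction, and its part in the counts was not tested. Against 1194 higher and 275 lower genes and 231 called in the wild-type pair, normexp gave 207, 144 and 4, quantile normalization 671, 529 and 327, a call at 4-fold 207, 43 and 4, both arrays above background 740, 245 and 100, and no filter on dim probes 3463, 455 and 1810. The difference of the effects against each control gave 1847 higher and 391 lower genes, with 854 (71.5%) and 223 (81.1%) of the direct calls among them. Of higher genes, those with only the array labelled Pla2g3-/- below control (352) numbered 37 with normexp, 191 with quantile, 216 with both above background, 1425 with no filter and 36 at 4-fold. Those with only the Lpar1-/- array above control (282) numbered 90 with normexp, 187 with both above background, 467 with no filter and 82 at 4-fold. Of lower genes, those below control in both (96) numbered 46 with normexp and 4 at 4-fold, and those with only the array labelled Pla2g3-/- above control (52) numbered 29 with normexp, 81 with quantile, 86 with no filter and 13 at 4-fold. The 75th percentile over detected probes, the deposited table and the mean of probes gave counts of these results within 1.5 times. For the deposited table, which holds the same signal, that was fixed in advance.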
